A study of Homo sapiens with 6 samples.

Results

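The trefoil factors TFF1, TFF2 and TFF3, the mucins MUC1, MUC5AC, MUC5B and MUC16, and the folding enzyme AGR2 were examined in A549 cells. These 8 genes were chosen by symbol out of 17787 symbols listed in the series, and the choice was made on results of this same contrast, so their values below are a description and carry no test. Of the 8, 7 had a value in at least 1 library. MUC5AC had no value to analyse here and was set to 0 in every library, as the rule does for an absent symbol.

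TFF1 was at 39.0 to 49.7 FPKM in siFOXD3 libraries and at 1.70 to 2.43 FPKM in siNC libraries, a ratio of means of 21.0. AGR2 was higher in siFOXD3 libraries by a ratio of 2.01. MUC1 was lower in siFOXD3 libraries, at a ratio of 0.785, and MUC16 and MUC5B overlapped between the groups. TFF2 and TFF3 were under 1 FPKM in all 6 libraries.

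Trefoil factors are small secreted peptides with a looped domain held by disulphide bonds, and mucosal epithelia release them together with mucins. Mucins are large proteins with stretches that carry many O-linked sugars. MUC5AC and MUC5B form the gel of airway mucus, while MUC1 and MUC16 are anchored in the cell membrane and shed from it. AGR2 is a protein disulphide isomerase of the endoplasmic reticulum, and in mouse intestine it is needed to make gel-forming mucin.

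Messenger RNA was sequenced from A549, an established human lung adenocarcinoma line, in 6 libraries. The siFOXD3 group, 3 libraries with the genotype label siFOXD3, is named for a small interfering RNA against FOXD3, a forkhead transcription factor. The siNC group, 3 libraries with the genotype label wild type, is the one it was set against, and the labels do not spell out siNC. The series title puts FOXD3 as a repressor of WDR5 and SET in lung cancer. Both groups are the same line, and the labels do not say whether libraries came from separate cultures, so p-values reflect only how far these libraries vary, and that variation may be technical. The extraction protocol in the labels speaks of retina, whereas the tissue and cell type labels name A549.

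Values are FPKM, fragments per length of transcript and per total of the library, and no read counts are given. The steps between low values put the depth at about 7830000 to 8870000 fragments in siFOXD3 libraries and 7660000 to 7980000 in siNC libraries. FOXD3 itself was listed at 0, 0.0749 and 0 FPKM in siFOXD3 libraries and at 0.152, 0.291 and 0.134 FPKM in siNC libraries. All the siFOXD3 values were below the siNC values, at about 1 fragment in all in siFOXD3 libraries and 8 in siNC libraries. Only siNC replicate 2, at 0.291 FPKM, was above 3 fragments (0.175 to 0.202 FPKM), the limit of detection used here. The ratio of fragments, 0.116, has an interval from 0.00261 to 0.862 for counting error only, so the size of the FOXD3 difference is poorly fixed at this depth. Of 9 photoreceptor markers none reached 1 FPKM in any library, and the epithelial keratin KRT8 was at 3188 to 3211 FPKM in siFOXD3 libraries and 1900 to 2351 FPKM in siNC libraries. Of the 12555 genes tested with limma on log2(FPKM + 1), 65.9% were called at a Benjamini-Hochberg adjusted p under 0.05, made up of 27.2% called higher and 38.7% called lower in siFOXD3 libraries. The median log2 difference of all genes tested was -0.08. With quantile normalization the calls split into 4205 higher and 3897 lower, where the values as deposited gave 3415 higher and 4863 lower.

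TFF1, the trefoil peptide of the gastric surface epithelium and a known oestrogen-responsive gene of breast cancer lines, had 49.7, 44.1 and 39.0 FPKM in siFOXD3 libraries 1 to 3. In siNC libraries it had 2.18, 1.70 and 2.43 FPKM. Every siFOXD3 library was far above every siNC library, and all 6 were above the filter of 1 FPKM. The means were 44.3 ± 5.38 FPKM in siFOXD3 libraries and 2.10 ± 0.372 FPKM in siNC libraries (SD, n = 3 each), a difference of 3.87 on the log2(FPKM + 1) scale. That difference was number 4 from the highest among the 12555 genes. At the estimated depth the values stand for about 171, 139 and 139 fragments in siFOXD3 libraries and 7, 5 and 8 in siNC libraries. The low siNC counts leave a counting interval for the ratio from 13.3 to 34.3 (95%, exact binomial, counting error only). TFF1 stood above 84.3% of tested genes in siFOXD3 libraries and above 9.53% in siNC libraries.

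The other trefoil genes did not share that level. TFF3, the trefoil peptide of intestinal goblet cells that airway cells also secrete, had 0.618, 0.267 and 0.477 FPKM in siFOXD3 libraries and 0.272, 0 and 0.129 FPKM in siNC libraries. The groups overlapped, with siFOXD3 replicate 2 and siNC replicate 1 at about 2 fragments each. Only siFOXD3 replicates 1 and 3 were above 3 fragments (0.352 to 0.408 FPKM), the limit of detection used here. The TFF3 values stand for about 11 fragments in siFOXD3 libraries and 3 in siNC libraries, and the ratio of 3.39 has a counting interval from 0.896 to 18.9. TFF2, the trefoil peptide of gastric gland cells, was listed at 0, 0.236 and 0 FPKM in siFOXD3 libraries and at 0, 0.237 and 0.227 FPKM in siNC libraries. Each value above 0 was worth about 1 fragment, below the 3 fragments (0.575 to 0.666 FPKM) taken as the limit of detection. The ratio of 0.463 has a counting interval from 0.00784 to 8.88, and a difference in TFF2 within that interval was not detectable at this depth.

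**Figure D1:**
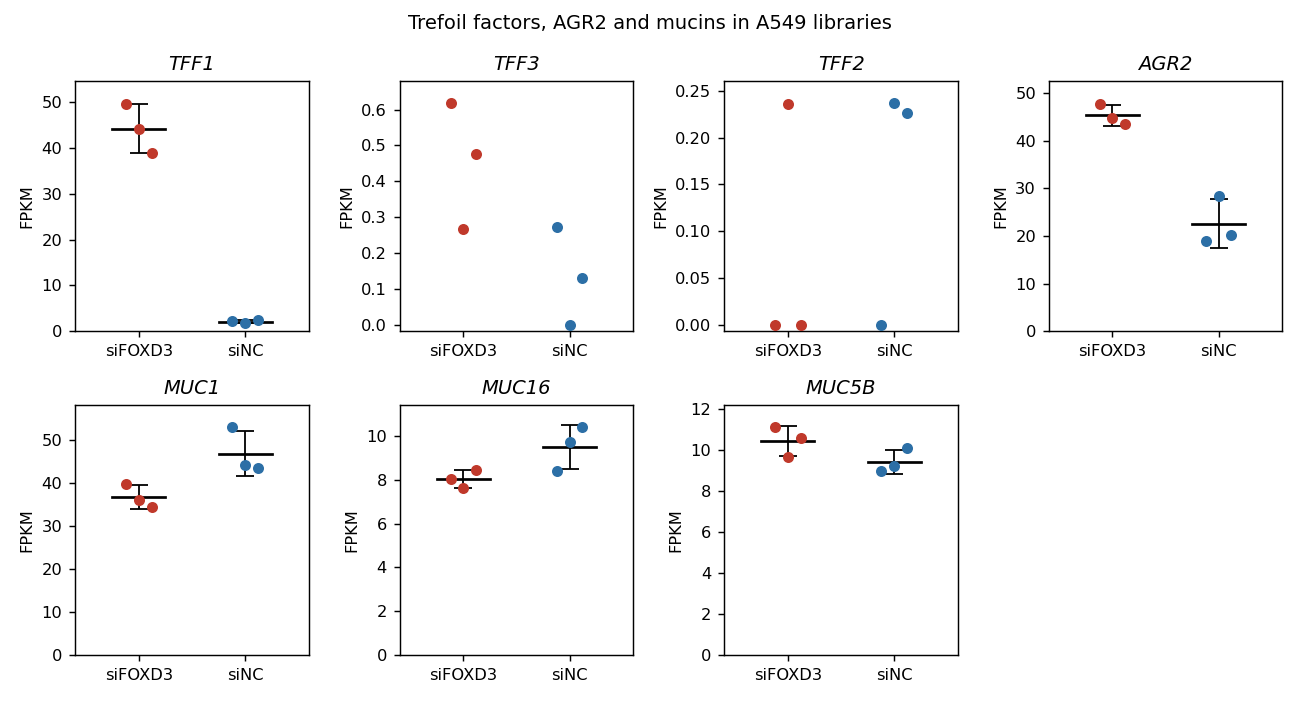
FPKM of 7 genes in each library (points, siFOXD3 left and siNC right, each panel with its own linear axis). Lines are means and bars the SD of 3 libraries, left out for TFF2 and TFF3, which were listed at 0 in some libraries. TFF1 and AGR2 lie higher in all siFOXD3 libraries, MUC1 lies lower, and the groups overlap for the rest.

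AGR2 had 47.8, 44.8 and 43.5 FPKM in siFOXD3 libraries and 19.0, 28.5 and 20.2 FPKM in siNC libraries. The groups did not overlap, and siNC replicate 2 was the highest of its group. The means were 45.4 ± 2.18 FPKM in siFOXD3 libraries and 22.6 ± 5.21 FPKM in siNC libraries (SD, n = 3 each), a log2 difference of 1.00 that was number 233 from the highest. AGR2 had about 1867 fragments in siFOXD3 libraries and 857 in siNC libraries, so its ratio is far less limited by counting than that of TFF1. Its coefficient of variation was 4.8% among siFOXD3 libraries and 23.1% among siNC libraries.

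MUC1, the membrane mucin of glandular and airway cells, had 39.7, 36.0 and 34.3 FPKM in siFOXD3 libraries and 52.8, 44.0 and 43.4 FPKM in siNC libraries. It was lower in every siFOXD3 library than in any siNC library, with siNC replicate 1 standing highest. The means were 36.7 ± 2.76 FPKM in siFOXD3 libraries and 46.7 ± 5.26 FPKM in siNC libraries (SD, n = 3 each), a log2 difference of -0.34. MUC16, the membrane mucin whose shed part is the CA125 antigen, had 8.06, 7.65 and 8.47 FPKM in siFOXD3 libraries and 8.41, 9.74 and 10.4 FPKM in siNC libraries. The highest siFOXD3 value passed the lowest siNC value, so the groups overlapped, and the log2 difference was -0.21. MUC5B, the gel-forming mucin of airway submucosal glands, had 11.1, 9.64 and 10.6 FPKM in siFOXD3 libraries and 8.98, 9.23 and 10.1 FPKM in siNC libraries. These overlapped too, with a log2 difference of 0.13.

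Of the 5 genes of the set that passed the filter on low values, TFF1 and AGR2 were higher without overlap and MUC1 was lower without overlap. Over all tested genes 70.7% did not overlap between the groups, 29.6% being higher and 41.1% lower in siFOXD3 libraries, and since the genes were chosen on this contrast nothing is read from the comparison. None of the 50-base stretches in GENCODE transcripts of TFF1, TFF2, TFF3, AGR2, MUC1 or MUC16 occurred in another gene. For MUC5B 2.81% of stretches did, shared with MUC5AC and MUC5B-AS1, so a small share of MUC5B reads could be placed in either gene.

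The order of levels, read from FPKM since it is scaled per length, differed between the groups. Transcript lengths in GENCODE run from 551 bases for TFF1 to 43816 for MUC16. Whether the scaling is even over that range was not tested, so levels of different genes compare only roughly. In siFOXD3 libraries AGR2 averaged 45.4 FPKM, TFF1 44.3 FPKM and MUC1 36.7 FPKM, and the ranges of AGR2 and TFF1 overlapped, as did those of TFF1 and MUC1. MUC5B and MUC16 followed at 10.5 and 8.06 FPKM, with ranges apart from each other and from the genes above. In siNC libraries MUC1 led at 46.7 FPKM, AGR2 came next at 22.6 FPKM, MUC16 and MUC5B lay at 9.50 and 9.43 FPKM with overlapping ranges, and TFF1 was last at 2.10 FPKM.

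The summed FPKM of the set was 157, 143 and 136 in siFOXD3 libraries and 91.6, 93.5 and 86.8 in siNC libraries. TFF1 made up 31.7%, 30.9% and 28.6% of it in siFOXD3 libraries and 2.38%, 1.82% and 2.81% in siNC libraries. MUC1 made up 25.2% to 25.3% in siFOXD3 libraries and 47.1% to 57.6% in siNC libraries. AGR2 made up 30.4% to 31.9% in siFOXD3 libraries and 20.7% to 30.5% in siNC libraries. TFF1 and AGR2 had the larger parts in siFOXD3 libraries, ahead of MUC1, while MUC1 had the largest part in siNC libraries.

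**Figure D2:**
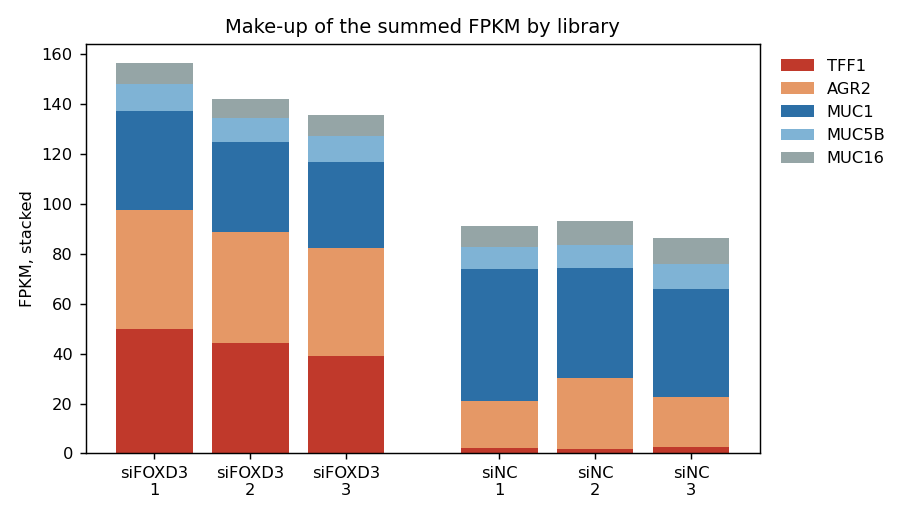
Stacked FPKM of TFF1, AGR2, MUC1, MUC5B and MUC16 in each library (linear axis from 0, siFOXD3 libraries left, siNC libraries right). The TFF1 block is 39.0 to 49.7 FPKM tall in siFOXD3 libraries and 1.70 to 2.43 FPKM in siNC libraries.

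Promoter windows from RefSeq (GRCh38.p14, 250 bases before to 50 after the gene start) matched 3 of the 8 genes, AGR2, MUC1 and MUC16. The windows of AGR2, which was higher, and MUC1, which was lower, are shown because they are the promoters at hand of genes whose groups did not overlap. The AGR2 window lies on the minus strand at chr7:16804950-16805249 and has 43.7% G and C. That of MUC1, at chr1:155192866-155193165 on the minus strand, has 65.7%. Capitals mark TATAAA, the core promoter box, 24 bases before the start used for this MUC1 window. RefSeq also has a second MUC1 window, at chr1:155192860-155193159, whose start puts the same box 30 bases upstream.
AGR2: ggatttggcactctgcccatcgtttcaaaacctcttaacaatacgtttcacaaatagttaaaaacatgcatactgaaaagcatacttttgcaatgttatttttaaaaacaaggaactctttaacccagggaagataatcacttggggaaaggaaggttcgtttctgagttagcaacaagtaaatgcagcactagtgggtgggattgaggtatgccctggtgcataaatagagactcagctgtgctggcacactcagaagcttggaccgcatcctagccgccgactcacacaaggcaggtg
MUC1: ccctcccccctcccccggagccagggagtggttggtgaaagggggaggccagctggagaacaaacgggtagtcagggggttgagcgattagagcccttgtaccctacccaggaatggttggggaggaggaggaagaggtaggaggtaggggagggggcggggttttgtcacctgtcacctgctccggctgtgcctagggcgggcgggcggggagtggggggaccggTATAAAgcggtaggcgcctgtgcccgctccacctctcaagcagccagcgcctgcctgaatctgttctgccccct

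Forkhead factors as a family bind short cores, and 3 of them were searched on both strands in these windows. The core TGTTTAC occurs in 3.42% of all 35116 windows of the same length. A second core, TGTTTGC, occurs in 3.89% of them, and TATTTAC was found in 2.67%, so that 9.57% of windows hold at least 1. None of these letters occurred in the AGR2, MUC1 or MUC16 windows, which says nothing beyond these windows. TATAAA was present in 11.5% of all windows.

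The genes next to the set in RefSeq gene order were followed to see which moved at each locus. Of 30 tested neighbours, 6 were called higher (20%, against 27.2% of all genes), 8 lower (26.7%, against 38.7% of all genes) and 16 not called, so both shares were below those of all genes. At the trefoil cluster on chromosome 21 the nearest tested gene on each side was lower, and those farther out were lower or not called. ABCG1, a cholesterol exporter next to the TFF3 end, had 0.203, 0.124 and 0.277 FPKM in siFOXD3 libraries and 2.11, 3.23 and 3.06 FPKM in siNC libraries. It passed the filter through the siNC libraries alone and so had to differ, and its log2 difference of -1.65 is given without its p, although it is 1 of the 8 neighbours counted as lower. TMPRSS3, a membrane serine protease next to the TFF1 end, averaged 3.35 ± 0.457 FPKM in siFOXD3 libraries and 9.37 ± 1.12 FPKM in siNC libraries (limma, adjusted p = 4.44e-06). SLC37A1, a sugar-phosphate transporter, was lower as well, by a log2 difference of -0.44, and C2CD2 and RSPH1 were not called. ZNF295 was called lower (-0.33; limma, adjusted p = 0.0342), a call lost under 7 of 14 other settings, among them leaving out siFOXD3 replicate 2, siNC replicate 2 or siNC replicate 3.

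AGR2, on chromosome 7, lay beside genes that were higher on one side. TSPAN13, a tetraspanin and its next tested neighbour, averaged 59.5 ± 3.57 FPKM in siFOXD3 libraries and 42.9 ± 0.792 FPKM in siNC libraries (limma, adjusted p = 4.13e-05). BZW2 and ANKMY2 beyond it were higher too, by log2 differences of 0.59 and 0.33. The call of ANKMY2 was lost without siFOXD3 replicate 1, siFOXD3 replicate 3 or siNC replicate 1. On the other side AHR and SNX13 were not called, and HDAC9, a histone deacetylase, was at 2.74 ± 0.304 FPKM in siFOXD3 libraries and 14.0 ± 1.59 FPKM in siNC libraries (log2 difference -2.00 ± 0.10; limma, adjusted p = 1.23e-07). AHR was called higher under median-of-ratios scaling, under quantile normalization and without siNC replicate 2.

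Next to MUC1 on chromosome 1, TRIM46 and THBS3 were both lower. THBS3, a thrombospondin of the extracellular matrix, had 1.78, 1.48 and 2.20 FPKM in siFOXD3 libraries and 4.97, 6.30 and 7.0 FPKM in siNC libraries, a log2 difference of -1.33 (limma, adjusted p = 1.19e-05). TRIM46 differed by -0.83 (limma, adjusted p = 0.000337), and DPM3, KRTCAP2 and MTX1 were not called. Since the use of strand is not stated, reads from genes that overlap cannot be told apart. Around MUC5B on chromosome 11, TSPAN4 was lower (-0.33) and CHID1 higher (0.32), while AP2A2, TOLLIP, BRSK2 and MOB2 were not called. Around MUC16 on chromosome 19, HNRNPM, a splicing regulator 10 genes away, was higher by 1.28 and ZNF317 by 0.21, the second a call lost under 5 of 14 other settings, among them leaving out siFOXD3 replicate 2 or 3 or siNC replicate 2 or 3. ZNF414, ZNF558, ZNF559 and ZNF177 were not called.

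**Figure D3:**
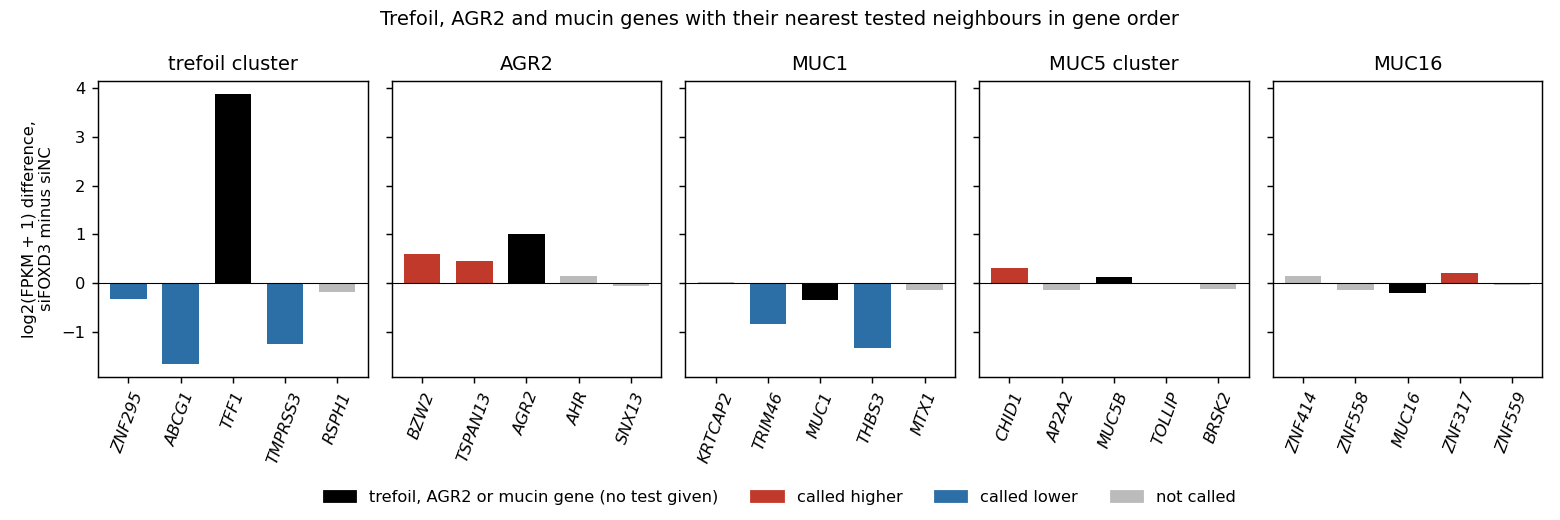
Difference on the log2(FPKM + 1) scale, siFOXD3 minus siNC, of the filtered genes of the set (black) and of the 2 nearest tested genes on each side in RefSeq order. Bars in red were called higher and in blue lower in siFOXD3 libraries. TFF1 at 3.87 stands between ABCG1 at -1.65 and TMPRSS3 at -1.25. ABCG1 passed the filter through siNC libraries alone and so had to differ.

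Of 17 other mucins, 4 were tested, and 1 was called higher (25%, against 27.2% of all genes) and 3 lower (75.0%, against 38.7%). The median log2 difference was -0.44, against -0.08 for all genes, and 4 genes are few to read a share from. MUC4, the membrane mucin that partners ERBB2, had 39.7, 33.4 and 40.1 FPKM in siFOXD3 libraries and 63.8, 80.8 and 87.2 FPKM in siNC libraries, well apart (log2 difference -1.01 ± 0.11; limma, adjusted p = 1.96e-05). MUC20, another membrane mucin, was lower by -0.47. OVGP1, oviductin, was lower by -0.41, a call lost with quantile normalization and without siFOXD3 replicate 2 or 3 or siNC replicate 1 or 3. CD164, the sialomucin endolyn, was higher by 0.27, a call lost with quantile normalization. MUC2, the gel-forming mucin of the intestine, was at 0.0111 to 0.0344 FPKM in siFOXD3 libraries and 0.0116 to 0.0509 FPKM in siNC libraries, and it was added after its values were seen.

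Of 24 secreted proteins of mucosal fluid, 5 were tested, 3 were called lower (60.0%, against 38.7% of all genes) and none higher (against 27.2%). None of the 5 tested genes was higher at an unadjusted p under 0.05 by limma either. No share of all genes is given here for that threshold, so nothing is read from that count. The median was -0.61. The replicate block and quantile normalization each gave 1 called higher, and without the filter 2 were called higher and 5 lower. WFDC2 (HE4), an airway and ovarian secreted protein, had 35.3, 34.8 and 40.1 FPKM in siFOXD3 libraries and 243, 219 and 256 FPKM in siNC libraries. No library of 1 group came near the other, and the log2 difference was -2.67 ± 0.07 (limma, adjusted p = 3.54e-09). ZG16B differed by -0.87, and SLPI, the antiprotease of airway lining fluid, by -0.61. SCGB1A1, the club cell secretory protein, was at 1.72, 2.24 and 0.844 FPKM in siFOXD3 libraries and listed at 0 in all siNC libraries. GKN2, a gastric peptide that binds TFF1, was at 0.861, 1.82 and 1.72 FPKM in siFOXD3 libraries and listed at 0 in all siNC libraries. Both were below the filter, and both were picked out after their values were seen. Other untested genes of this list, BPIFA1, AZGP1 and DMBT1, went the other way without overlap, each averaging under 1 FPKM in both groups. AZGP1 averaged 0.0286 FPKM in siFOXD3 libraries and 0.34 FPKM in siNC libraries.

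Of 17 relatives of AGR2 and oxidative folding genes, 15 were tested, 7 were called higher (46.7%, against 27.2% of all genes) and 6 lower (40.0%, about the 38.7% of all genes), with a median of 0.10. PDIA4, a disulphide isomerase, averaged 146 ± 1.36 FPKM in siFOXD3 libraries and 79.0 ± 1.92 FPKM in siNC libraries (log2 difference 0.88; limma, adjusted p = 1.20e-07). The chaperone HSPA5 (0.60) and the isomerase P4HB (0.43) were also higher. Isomerases did not all move alike, since PDIA3 (0.52) and PDIA6 (0.51) were called higher and PDIA5 (-0.54) lower. The oxidase QSOX1 was called lower by -0.26, and it and these PDIA genes were added after their values were seen. ERO1LB, an oxidase that recharges isomerases, was lower by -1.29, at 0.498 FPKM in siFOXD3 libraries and 2.66 FPKM in siNC libraries. It passed the filter through siNC libraries alone. Its more abundant relative ERO1L averaged 44.4 FPKM in siFOXD3 libraries and 48.9 FPKM in siNC libraries and was not called (limma, adjusted p = 0.0809). The cochaperone DNAJB9 was lower by -1.0 and the stress sensor ERN1 by -0.91. AGR3, the closest relative of AGR2, was set to 0 in all libraries.

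Of 24 transcription factors of mucosal epithelia, 13 were tested, 3 were called higher (23.1%) and 5 lower (38.5%), with a median of -0.15. These shares were near the 27.2% and 38.7% of all genes, and without the filter 9 were called lower. FOXA1, a forkhead factor that drives TFF1 with the oestrogen receptor in breast cancer lines, had 34.1, 33.7 and 33.2 FPKM in siFOXD3 libraries and 21.5, 21.8 and 21.5 FPKM in siNC libraries (log2 difference 0.62; limma, adjusted p = 3.19e-06). The endoderm factor GATA6 was lower by -0.99, the ETS factors EHF and ELF3 by -0.74 and -0.58, and XBP1, of the unfolded protein response, by -0.56. SPDEF, the goblet cell factor, had 3.72, 3.57 and 3.31 FPKM in siFOXD3 libraries and 3.56, 4.0 and 5.48 FPKM in siNC libraries and was not called. It lies outside the rule for named genes and was added after its values were seen.

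Of 15 oestrogen-responsive genes, 11 were tested, 1 was called higher (9.09%, against 27.2% of all genes) and 5 lower (45.5%, against 38.7%), with a median of -0.11. The split depended on the setting, with 3 higher and 3 lower under quantile normalization, 2 higher and 4 lower under median-of-ratios scaling, 2 higher under the replicate block or without siNC replicate 3, and 3 lower with the filter of 3 FPKM. STC2 averaged 24.2 ± 1.44 FPKM in siFOXD3 libraries and 52.4 ± 3.08 FPKM in siNC libraries (limma, adjusted p = 3.61e-07). GREB1, which passed the filter through siNC libraries alone, was lower by -0.67. PDZK1 was lower by -0.53, a call lost with quantile normalization. The oestrogen receptor ESR1, likewise added after its values were seen, was at 0.915 to 1.13 FPKM in siFOXD3 libraries and 1.06 to 1.3 FPKM in siNC libraries and was not called.

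Of 29 genes for the O-linked sugars of mucins, 20 were tested, with a median of -0.04. Among them 2 were called higher (10%, against 27.2% of all genes) and 7 lower (35%, near the 38.7% of all genes). The higher count became 4 under median-of-ratios scaling and 5 under quantile normalization. The genes called higher were the sialyltransferase ST3GAL1 (0.48) and the initiating enzyme GALNT6 (0.24), named after their values were seen. FUT3, the Lewis fucosyltransferase, averaged 10.6 ± 1.23 FPKM in siFOXD3 libraries and 20.9 ± 1.73 FPKM in siNC libraries (limma, adjusted p = 1.06e-05). B4GALT1 and ST6GALNAC2 each differed by -0.72 and the initiating enzyme GALNT12 by -0.67. GALNT2, an abundant initiating enzyme, was at 56.1 ± 2.24 FPKM in siFOXD3 libraries and 53.8 ± 3.37 FPKM in siNC libraries and was not called (limma, adjusted p = 0.388).

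Of 19 genes of mucin granule release, 15 were tested, 1 was called higher (6.67%, against 27.2% of all genes) and 6 lower (40.0%, about the 38.7% of all genes), with a median of -0.21. The higher count became 3 under median-of-ratios scaling and 2 without the filter, without siFOXD3 replicate 2 or without siNC replicate 1. STXBP2, which guides vesicle fusion, was lower by -0.49, and its relative STXBP3 was higher by 0.49. The SNARE protein SNAP23 was lower by -0.55. ANXA2, at 1162 ± 26.7 FPKM in siFOXD3 libraries and 1202 ± 85.7 FPKM in siNC libraries, and CAPN2, at 232 ± 4.99 FPKM in siFOXD3 libraries and 218 ± 10.8 FPKM in siNC libraries, were not called. CAPN2 was called higher under median-of-ratios scaling and without siNC replicate 1. Of 20 partners and sheddases of trefoil factors and mucins, 15 were tested, 3 were called higher (20%, against 27.2% of all genes) and 8 lower (53.3%, against 38.7%), also with a median of -0.21. MSLN, which binds MUC16, averaged 39.5 ± 0.844 FPKM in siFOXD3 libraries and 71.7 ± 2.70 FPKM in siNC libraries (limma, adjusted p = 3.76e-07). CXCR7, a chemokine receptor through which trefoil peptides are reported to act, was lower by -0.91, and EGFR, which MUC1 binds, by -0.60. LYPD3, a reported surface receptor of AGR2, had 106, 108 and 107 FPKM in siFOXD3 libraries and 69.3, 65.0 and 58.8 FPKM in siNC libraries (log2 difference 0.73; limma, adjusted p = 3.41e-06). LGALS3, the galectin that binds MUC1 sugars, was higher by 0.24.

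**Figure D4:**
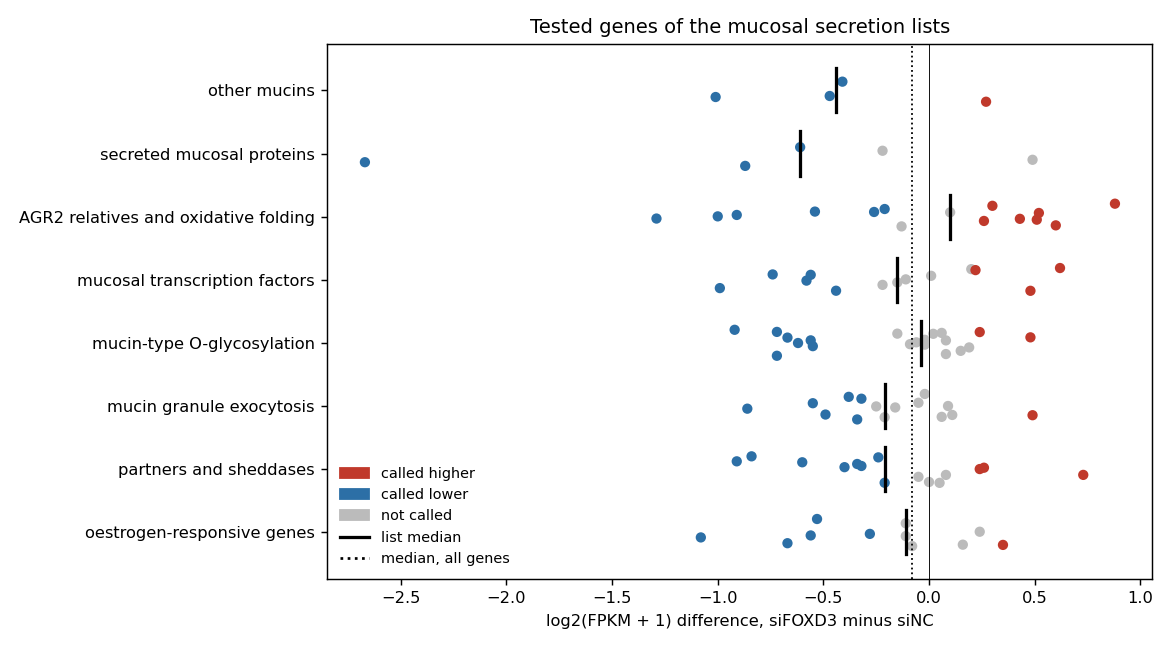
Difference on the log2(FPKM + 1) scale, siFOXD3 minus siNC, of the tested genes in 8 lists (1 point a gene, colour by limma call, black bars the list medians, dotted line the median of all genes at -0.08). Points of both colours occur in every list but the secreted mucosal proteins, where WFDC2 lies farthest left at -2.67.

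Markers of cell types that make these proteins were read over whole lists. The summed goblet cell markers were 21.0 to 25.8 FPKM in siFOXD3 libraries and 36.1 to 37.9 FPKM in siNC libraries. Of these 8 genes 3 were tested and 1 was called lower (33.3%, against 38.7% of all genes). That gene, ZG16B, made up most of the difference, averaging 12.4 FPKM in siFOXD3 libraries and 23.5 FPKM in siNC libraries. BPIFB1 was not called, with SPDEF as above. The summed basal cell markers were 21.2 to 21.6 FPKM in siFOXD3 libraries and 11.4 to 12.8 FPKM in siNC libraries, most of it KRT15. Of these 5 genes 2 were tested and both were called higher, against 27.2% of all genes, and 2 are few to read a share from. KRT5 passed the filter through siFOXD3 libraries alone and so had to differ. NGFR, not tested, went the other way, averaging 0.0096 FPKM in siFOXD3 libraries and 0.236 FPKM in siNC libraries. Club cell markers summed to 1.34 to 2.53 FPKM in siFOXD3 libraries and 0.732 to 1.12 FPKM in siNC libraries, and none of 5 was tested. SCGB1A1 made up most of the siFOXD3 sum, at about 13 fragments in all. BPIFA1 made up most of the siNC sum and went the other way. It was at 0.138, 0.284 and 0 FPKM in siFOXD3 libraries and 0.574, 0.721 and 1.12 FPKM in siNC libraries. Gastric mucosa markers summed to 4.98 to 7.04 FPKM in siFOXD3 libraries and 3.93 to 8.43 FPKM in siNC libraries. Among them GKN2 was higher, as above, while GAST, PGC and CLDN18 averaged lower in siFOXD3 libraries, GAST and PGC with overlap. GAST, the most abundant, averaged 4.06 FPKM in siFOXD3 libraries and 5.41 FPKM in siNC libraries and was not called. Ciliated cell markers were at 10.1 to 13.1 FPKM in siFOXD3 libraries and 15.1 to 19.0 FPKM in siNC libraries, and alveolar type II markers at 5.29 to 6.57 FPKM in siFOXD3 libraries and 9.16 to 10.4 FPKM in siNC libraries, with the surfactant gene SFTPB at 0. Leukocyte markers were at 67.9 to 68.5 FPKM in siFOXD3 libraries and 75.0 to 84.6 FPKM in siNC libraries, most of it CD68, and fibroblast and endothelial markers at 5.01 to 5.58 FPKM in siFOXD3 libraries and 6.37 to 7.86 FPKM in siNC libraries. In bulk RNA a change in how many cells express TFF1 and a change in its level per cell cannot be told apart, and the part of these markers in the values of TFF1 and AGR2 was not tested.

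The genes with the most similar profile over the 6 libraries were found by the Euclidean distance of centred log2(FPKM + 1) values among 11610 genes. For TFF1 they were SPANXA2 (distance 1.51), a cancer-testis gene with near-identical copies whose values are uncertain, and KRT4 (2.02), a mucosal keratin. KRT4 had 13.2, 12.2 and 11.4 FPKM in siFOXD3 libraries and 1.58, 2.07 and 1.69 FPKM in siNC libraries, and these distances are long because few genes differ as much as TFF1. For AGR2 they were CD3EAP (0.156), an RNA polymerase I subunit, and NUP35 (0.208), a nuclear pore protein, both of which repeat its high siNC replicate 2. MUC1 was nearest to MGC12982 (0.0637) and FAM98C (0.0654), MUC16 to LUC7L3 (0.0591) and MAP3K2 (0.0615), and MUC5B to LRIG2 (0.0699) and PHF16 (0.0731).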

How the data were processed

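Each of the 6 libraries of A549 cells came with 1 table of FPKM per gene symbol, the unit the authors deposited per the file headers. The submitters' processing notes name hg19, TopHat and Cufflinks, while versions, annotation and strand handling were not given in the sources used here. Rows of 1 symbol were summed and absent symbols set to 0. Tests used limma 3.58.1 (R 4.3.3; trend and robust, two-sided) on log2(FPKM + 1), which understates the change of low genes, over 12555 genes with at least 1 FPKM in at least 3 libraries, with Benjamini-Hochberg adjustment over all of them and tested on simulated data. The genes of the set and the lists were chosen with earlier results of these data known. Named are, per list, up to 4 called genes with the largest difference and no overlap and the 2 most abundant, all locus neighbours, and the 2 nearest profiles of each gene. Markers and other genes outside this rule were added after their values were seen, and some genes the rule selects are not reported here. Depth was estimated from low values of genes with 1 transcript of 700 to 4000 bases in GENCODE 29, assuming 150-base fragments. GENCODE and RefSeq are on GRCh38, so they served for lengths, sequences and gene order alone. Fragment counts are estimates, and intervals cover counting error only. Python 3.11.15 with pandas 2.3.3 was used for the rest.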

Additional observations from a re-analysis of the deposited data

How the results depend on the processing

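The log2 differences of the 5 genes of the set that passed the filter kept their sign under all settings tried, a pseudocount of 0.1 or 5, no filter or a filter of 3 FPKM, median-of-ratios scaling, quantile normalization, eBayes without trend and robust, the replicate block and each library left out. TFF1 was 4.34 with a pseudocount of 0.1 and 2.79 with a pseudocount of 5, and MUC5B was 0.22 with quantile normalization, where MUC16 was -0.10 against -0.21 as deposited. TFF3, under the filter, was 0.36 and became 1.39 with a pseudocount of 0.1 and 0.09 with a pseudocount of 5. Leaving out each library gave 3.77 to 3.95 for TFF1, 0.89 to 1.17 for AGR2 and -0.39 to -0.25 for MUC1. The 8278 genes called became 7277 to 8908 over all settings. With the replicate block 3354 genes were called higher and 4818 lower. Deviations of same-numbered libraries correlated at 0.0613, 0.163 and 0.115, and every library correlated best with its own number, a hint of pairing from the data. Pairing was taken as shown only where each correlation passed 0.1, which 1 did not, so the fit without the block was kept. Of the list counts under other settings, 206 stayed within 1.5 times and 18 moved further. The depth limits TFF2 and TFF3 most.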
